A study of Homo sapiens with 4 samples.

Results

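Condensin and the SMC core of cohesin were examined in PC3 cells 48 h after transfection with siRNA. The set was defined by gene name: the 8 subunits of condensin I and condensin II and the cohesin proteins SMC1A and SMC3. It was chosen, as were the gene lists used below, with earlier results of these data known. The array's annotation assigned 24 probe sets to these 10 genes and to no other gene, of 54675 probe sets in all, and every gene had at least 1. The groups compared were cells given COUP-TFII siRNA and cells given control siRNA, each at 40 nM and each with 2 arrays. PC3 is a human prostate cancer line derived from a bone metastasis, grown here in RPMI with fetal bovine serum. COUP-TFII is a transcription factor of the nuclear receptor family with no established ligand, and the comparison asks which transcripts change when it is depleted. The level of its own transcript is not analysed here, so the siRNA labels were not checked against it. The labels do not say whether the 2 replicates were separate transfections, and p-values therefore reflect array-to-array spread alone, which may be technical. Each group has 1 siRNA label, and effects of the duplex on transcripts other than through its target were not tested.

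SMC (structural maintenance of chromosomes) proteins are long coiled-coil ATPases that pair into V-shaped dimers and form rings together with a kleisin subunit. Condensin folds interphase chromatin into compact mitotic chromosomes by extruding loops: SMC2 and SMC4 form the dimer of both condensins, NCAPH, NCAPG and NCAPD2 complete condensin I, and NCAPH2, NCAPG2 and NCAPD3 complete condensin II. Condensin I reaches chromosomes after the nuclear envelope breaks down, while condensin II resides in the nucleus throughout the cell cycle. Cohesin, built on SMC1A and SMC3 with the kleisin RAD21 and a STAG subunit, holds sister chromatids together from S phase to anaphase and forms chromatin loops in interphase.

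The stretch before the transcription start is shown for 6 of the genes: the 3 with the largest falls (NCAPH, NCAPG and SMC4), NCAPD2, whose window held the most motif matches, and the cohesin partners SMC1A, which passed the test of expression as lower, and SMC3, which did not. Sequences are from RefSeq (GRCh38.p14), 250 bases ending at the base before the annotated start, 5′ to 3′ on the gene's strand. RefSeq entries were matched for 9 of the 10 genes, not for NCAPH2, and where a gene had 2 starts the one with a match is shown. Capitals mark the core of the cell cycle homology region, TTTGAA, a motif known from promoters of G2 and mitotic genes, the CCAAT box, CCAAT, a motif often found near it, and the E2F motif in 4 spellings, TTTCCCGC, TTTGGCGC, TTTCGCGC and TTTGCCGC. Each was searched on both strands, and no 2 matches overlapped.
NCAPH, chr2:96335516-96335765, plus strand: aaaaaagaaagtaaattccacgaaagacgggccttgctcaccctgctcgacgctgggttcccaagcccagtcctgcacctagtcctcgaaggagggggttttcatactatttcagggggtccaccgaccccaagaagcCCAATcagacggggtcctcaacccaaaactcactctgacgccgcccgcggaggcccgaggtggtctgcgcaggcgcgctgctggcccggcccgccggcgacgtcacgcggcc
NCAPG, chr4:17810729-17810978, plus strand: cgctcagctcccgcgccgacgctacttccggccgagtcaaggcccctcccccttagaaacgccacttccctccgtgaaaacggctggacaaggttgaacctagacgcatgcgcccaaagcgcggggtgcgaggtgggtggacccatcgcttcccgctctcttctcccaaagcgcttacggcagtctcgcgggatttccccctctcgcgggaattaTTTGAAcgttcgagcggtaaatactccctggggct
SMC4, chr3:160399400-160399649, plus strand: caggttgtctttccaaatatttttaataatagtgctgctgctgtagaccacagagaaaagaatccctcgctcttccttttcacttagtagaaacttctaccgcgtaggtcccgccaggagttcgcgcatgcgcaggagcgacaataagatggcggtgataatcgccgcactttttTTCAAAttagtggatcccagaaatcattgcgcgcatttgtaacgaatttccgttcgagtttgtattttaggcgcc
NCAPD2, chr12:6493852-6494101, plus strand: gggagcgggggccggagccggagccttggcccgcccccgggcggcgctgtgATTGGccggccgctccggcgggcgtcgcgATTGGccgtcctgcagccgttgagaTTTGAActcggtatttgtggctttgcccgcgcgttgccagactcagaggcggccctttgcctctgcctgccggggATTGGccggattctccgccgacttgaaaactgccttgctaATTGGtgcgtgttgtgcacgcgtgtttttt
SMC1A, chrX:53422655-53422904, minus strand: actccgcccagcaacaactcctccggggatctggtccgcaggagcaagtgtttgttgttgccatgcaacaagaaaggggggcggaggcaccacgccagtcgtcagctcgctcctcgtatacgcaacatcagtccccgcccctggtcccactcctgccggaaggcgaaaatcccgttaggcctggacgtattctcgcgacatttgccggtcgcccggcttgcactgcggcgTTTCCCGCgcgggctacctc
SMC3, chr10:110567445-110567694, plus strand: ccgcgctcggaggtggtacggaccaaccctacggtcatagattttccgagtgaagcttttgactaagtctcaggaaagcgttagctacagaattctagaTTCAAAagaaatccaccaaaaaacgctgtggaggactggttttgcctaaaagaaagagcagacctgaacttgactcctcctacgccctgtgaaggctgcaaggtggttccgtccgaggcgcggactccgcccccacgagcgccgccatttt
TTTGAA lay 35 bases before the start of NCAPG, 75 before SMC4, 145 before NCAPD2 and 151 before SMC3, in 4 of the 13 windows of the 9 genes, and 13.3% of all 35116 promoter windows of this length held it. A CCAAT box was found in 3 of the 13 windows, with 1 match in NCAPH, 2 in NCAPD3 and 4 in NCAPD2, and in 32% of all windows. An E2F motif was found for NCAPD3, 249 bases before the start, and for SMC1A, 20 bases before it, in 2 of the 13 windows, and in 2.79% of all windows. The cell cycle homology spelling TTCGAA and the nuclear receptor half-site AGGTCA were in 0 of the 13 windows, and in 1.19% and 12.1% of all windows. These matches describe letters in a short window and show neither binding nor its absence. TTTGAA was thus found for NCAPG, SMC4 and NCAPD2, which passed as lower, and for SMC3, which did not. Any part of the motif in the falls was not tested.

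Array medians lay between 31.69 and 32.85. Replicate arrays correlated at 0.9880 for COUP-TFII siRNA and 0.9871 for control siRNA across probe sets on the log2 scale, and arrays from opposite groups at 0.9751 to 0.9794. The 3′ to 5′ ratio of the ACTB control probe sets, a sign of RNA integrity, was 1.42 and 1.46 on the COUP-TFII siRNA arrays, against 1.52 and 1.83 on the control arrays. For GAPDH it was 0.986 to 0.994 on the COUP-TFII siRNA arrays and 0.957 to 0.986 on the control arrays. KRT8, KRT18, KRT19, EPCAM and VIM, the markers listed for PC3, had mean intensities of 1720 to 9820. Of androgen-driven prostate genes listed as low in PC3, KLK3 averaged 21.5 with COUP-TFII siRNA and 17.1 with control siRNA, and TMPRSS2 averaged 391.6 with COUP-TFII siRNA and 144.3 with control siRNA. Of 11 markers of leukocytes, endothelium and fibroblasts, 0 passed the test (limma), and at an unadjusted p of 0.05 2 were higher and 0 lower. Both higher ones were endothelial. PECAM1 averaged 218.5 with COUP-TFII siRNA and 170.9 with control siRNA, and CDH5 averaged 14.8 and 4.96. None of the 11 was at exactly 0 in mean, VWF and CD14 being lowest at 1.11 and 6.76 with COUP-TFII siRNA and 1.38 and 1.07 with control siRNA. The summed intensities of the 3 lists were 56.2 to 61.7, 219.7 to 281.7 and 116.0 to 130.0 in COUP-TFII siRNA arrays, and 48.8 to 60.6, 187.8 to 188.0 and 141.0 to 157.5 in control arrays. Their part in the results was not tested, nor was that of the ACTB ratio.

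After COUP-TFII siRNA, transcripts of 7 of the 8 condensin genes fell, by 1.45- to 3.46-fold, and cohesin's SMC1A fell 1.97-fold. NCAPH2 and SMC3 did not pass the test. At gene level, with each gene represented by its brightest probe set, 8 of the 10 genes passed as lower, 0 as higher and 2 did not pass (limma, Benjamini-Hochberg adjusted p of 0.05 over 19775 genes). 0 members were higher at an unadjusted p of 0.05 as well. Over all genes tested, 10.3% passed as lower and 12.7% as higher, 23.0% in all. The groups did not overlap for 9 of the 10 genes, all lower in COUP-TFII siRNA, against 26.7% of all genes in that direction and 30.8% in the other. A fall of at least 2-fold that passed was seen for 4 of the 10 (NCAPH, NCAPG, SMC4 and NCAPD3), against 1.69% of all genes. The median log2 fold change of the 8 condensin genes was −0.98, and that of all genes 0.01. All fold changes here are differences of log2(intensity + 16), which understates changes of dim genes. In bulk RNA, fewer cells in the phases that express these genes and less RNA per cell cannot be told apart.

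**Figure D1:**
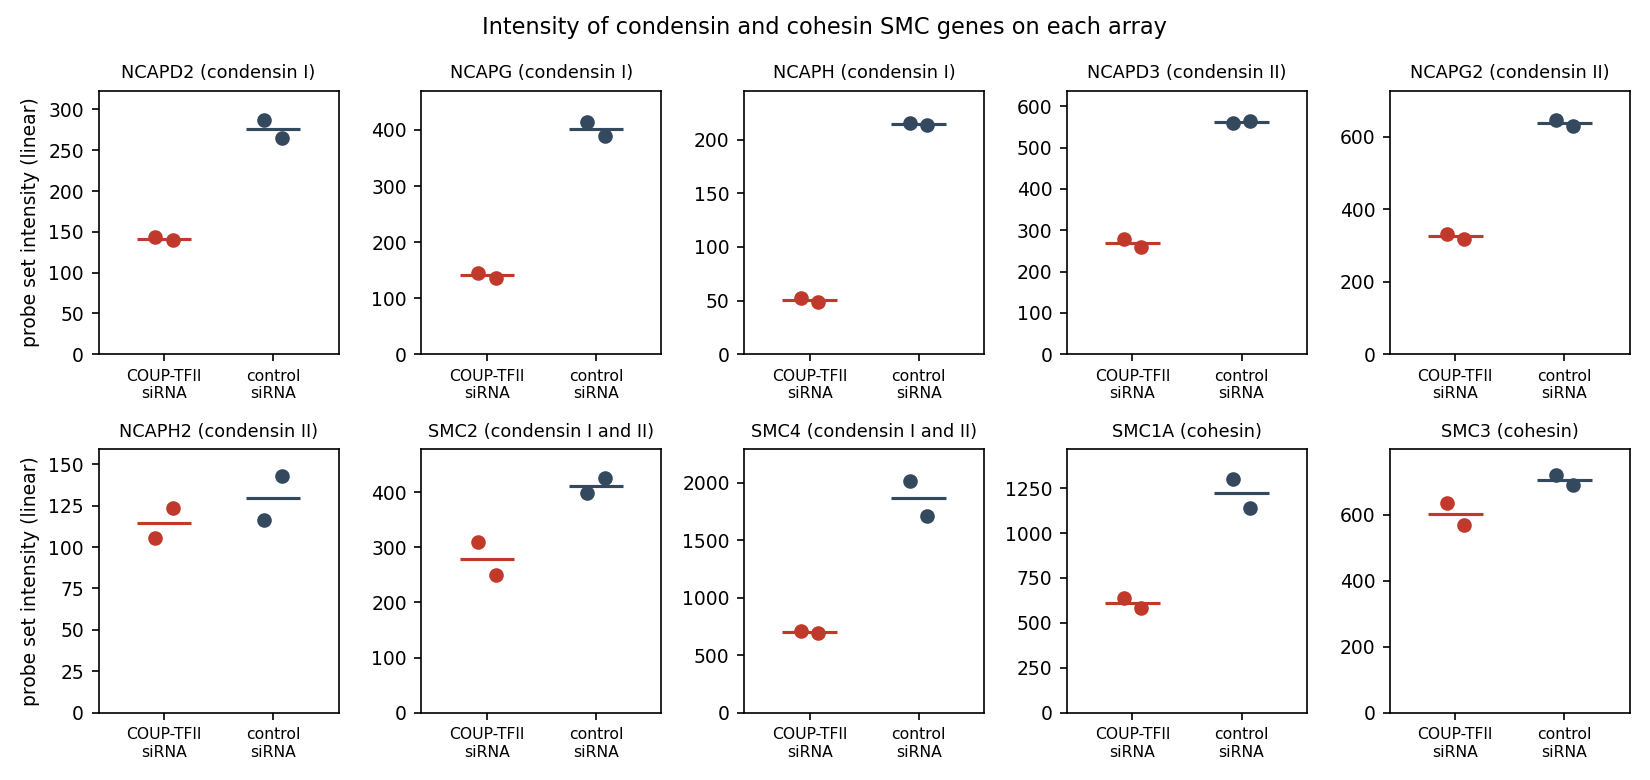
Probe set intensity (linear scale, y axis) of each of the 10 genes on the 2 COUP-TFII siRNA arrays (red, left) and the 2 control siRNA arrays (dark, right); points are arrays and lines are group means. The groups overlap for NCAPH2, and in the other 9 panels both COUP-TFII siRNA arrays lie below both control arrays.

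NCAPH, the kleisin that closes the condensin I ring, showed the largest fall of the 10. Its intensity was 52.2 and 49.1 in COUP-TFII siRNA cells, against 215.2 and 214.1 in control siRNA cells. The replicates of each group lay close together and far from the other group, and the log2 fold change was −1.79 ± 0.14 (SE, n = 2 arrays a group; adjusted p = 3.55e-05, limma). Ordered from the lowest log2 fold change, NCAPH ranked 36 of 19775 genes. NCAPG, a HEAT-repeat subunit of condensin I that binds DNA together with the kleisin, had 145.6 and 136.1 in COUP-TFII siRNA cells, against 413.8 and 389.1 in control cells, which is −1.41 ± 0.10 in log2 units (SE; adjusted p = 2.33e-05, limma). Its dimmer probe set gave the same picture, with 86.1 and 74.0 in COUP-TFII siRNA cells against 264.7 and 254.1 in control cells and a log2 fold change of −1.52 ± 0.12 (SE). NCAPD2, the other HEAT-repeat subunit of condensin I, had 143.7 and 139.5 in COUP-TFII siRNA cells, against 286.5 and 265.3 in control cells. The COUP-TFII siRNA mean was 51.3% of the control mean, and both arrays lay well below both control arrays, at −0.89 ± 0.11 in log2 units (SE; adjusted p = 0.000471, limma). All 3 subunits particular to condensin I therefore passed.

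SMC4 and SMC2, the ATPase pair that condensin I and condensin II share, both fell. SMC4 had 712.4 and 696.7 in COUP-TFII siRNA cells, against 2021 and 1714 in control cells, which is −1.38 ± 0.08 in log2 units (SE; adjusted p = 7.63e-06, limma). A second SMC4 probe set fell by 1.24 ± 0.07 (SE) on the log2 scale, with readings of 323.3 and 328.0 in COUP-TFII siRNA cells and 826.4 and 756.9 in control cells. The SMC4 probe set marked as open to cross-hybridisation read 41.0 and 51.9 with COUP-TFII siRNA and 40.2 and 47.0 with control siRNA, and did not pass. Its levels overlapped between the groups. SMC2 had 310.0 and 249.2 in COUP-TFII siRNA cells, against 397.8 and 425.9 in control cells, which is −0.54 ± 0.11 in log2 units (SE; adjusted p = 0.00816, limma). The gap between its 2 COUP-TFII siRNA arrays was wider than for the other condensin genes that passed. SMC2 lost its call without COUP-TFII siRNA replicate 2 (log2 fold change −0.39), control replicate 1 (−0.59) or control replicate 2 (−0.49). Without control replicate 1 the fall was larger than with all arrays. Here and below, leaving out 1 array left 1 in its group. A call lost there does not show that it rested on that array. Housekeeping centring, which sets each array to the median level of housekeeping genes, also ended the call (−0.23, limma adjusted p = 0.0946). So did the fit with no intensity trend (limma adjusted p = 0.0954). The other SMC2 probe set, with 114.1 and 122.7 in COUP-TFII siRNA cells against 210.5 and 192.9 in control cells, gave −0.70 ± 0.11 (SE).

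In condensin II, NCAPD3 and NCAPG2 fell and NCAPH2 did not pass. NCAPD3, the counterpart of NCAPD2, had 277.9 and 260.4 in COUP-TFII siRNA cells, against 559.7 and 564.8 in control cells, which is −1.02 ± 0.08 in log2 units (SE; adjusted p = 4.35e-05, limma). NCAPG2, the counterpart of NCAPG, had 332.5 and 318.0 in COUP-TFII siRNA cells, against 644.9 and 628.4 in control cells, which is −0.94 ± 0.08 in log2 units (SE; adjusted p = 4.85e-05, limma). For both genes the gap between replicates was small beside the distance between the groups. NCAPH2, the kleisin of condensin II, had 105.3 and 123.3 in COUP-TFII siRNA cells, against 116.5 and 142.8 in control cells. These ranges overlapped, and the log2 fold change of −0.16 had a 95% interval of −0.51 to 0.19 (limma adjusted p = 0.551). None of its 5 probe sets passed (limma, 0 at an unadjusted p of 0.05), with log2 fold changes from −0.23 to 0.03, and 1 of them was dim, with a mean intensity under 32. The gene's log2 fold change was 0.15 with housekeeping centring.

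**Figure D2:**
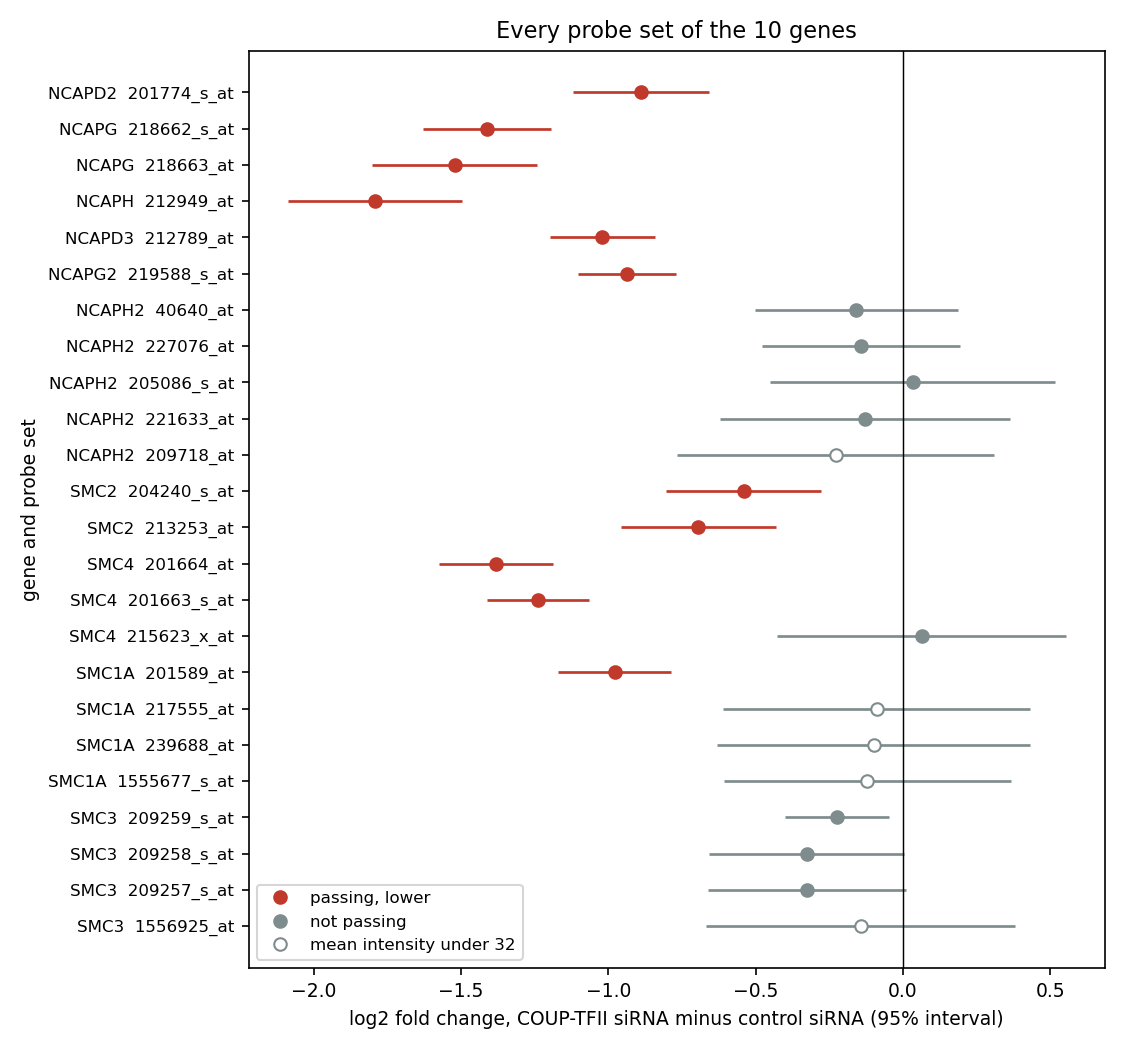
Log2 fold change (COUP-TFII siRNA minus control siRNA, x axis) with its 95% interval from the probe set fit for each of the 24 probe sets (rows). The 11 red ones passed as lower; open circles mark the 5 with a mean intensity under 32, and none of those passed.

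Of the SMC proteins of cohesin, SMC1A fell and SMC3 did not pass. SMC1A had 636.9 and 583.9 in COUP-TFII siRNA cells, against 1298 and 1142 in control cells, which is −0.98 ± 0.08 in log2 units (SE; adjusted p = 4.79e-05, limma). This value comes from the brightest of its 4 probe sets, and the other 3, all with a mean under 32, did not pass. Averaging the 4 gave a log2 fold change of −0.32 (limma adjusted p = 0.159). SMC3 had 634.8 and 570.3 in COUP-TFII siRNA cells, against 719.7 and 691.2 in control cells, which is −0.22 ± 0.08 in log2 units (SE; adjusted p = 0.0708, limma). The groups did not overlap, yet the difference missed the threshold, and its 95% interval ran from −0.40 to −0.05. Its next 2 probe sets, with log2 fold changes of −0.33 and −0.32, were lower without overlap and did not pass either. SMC3 passed in 3 of the 18 alternative settings (among them quantile normalization, limma adjusted p = 0.0220, and dim genes left out, 0.0371), and its log2 fold change was 0.08 with housekeeping centring.

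Over all 24 probe sets, 11 passed as lower and 0 as higher (limma, adjusted over 54613 probe sets; 0 higher at an unadjusted p of 0.05), where 5.67% of all probe sets passed as lower and 6.51% as higher, 12.2% in all. For 15 of the 24 the groups did not overlap with COUP-TFII siRNA lower, against 24.1% of all probe sets in that direction and 26.3% in the other. All 11 were among the 19 with a mean intensity of 32 or more, and the others of those 19 belonged to NCAPH2, SMC3 and the cross-hybridising SMC4 probe set. The 5 dim ones belonged to SMC1A, SMC3 and NCAPH2. The count was 5 with no intensity trend and 7 without control replicate 1.

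Counterpart and partner subunits were set against each other by the difference of their log2 values within each array. The exact permutation test over arrays, two-sided, cannot give a p below 0.333 with 2 arrays against 2, and it gave 0.333 for all 5 pairs (0.333 after Benjamini-Hochberg adjustment), so no difference within a pair passed. NCAPH and NCAPH2 differed by 1.63 on the log2 scale, with a pooled SD of 0.19 between replicates and the lower fold change in NCAPH. SMC4 and SMC2 differed by 0.84 (SD 0.21), with the lower fold change in SMC4, but by 0.23 when all probe sets of a gene were averaged, the cross-hybridising one of SMC4 included. SMC1A and SMC3 differed by 0.76 (SD 0.06), with the lower fold change in SMC1A, but by 0.07 when all probe sets of a gene were averaged. NCAPG and NCAPG2 differed by 0.48 (SD 0.03), with the lower fold change in NCAPG. NCAPD2 and NCAPD3, the remaining pair, differed by 0.13 (SD 0.06), the smallest of these differences.

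Most listed partners of condensin on mitotic chromosomes fell as well. Of 18 genes listed, 16 had a probe set of their own here, and 11 passed as lower, 0 as higher and 5 did not pass (limma; 0 higher at an unadjusted p of 0.05). Over all genes, 10.3% passed as lower and 12.7% as higher. The median of the list was −1.01 in log2 units, and that of all genes 0.01. CDK1, the mitotic kinase that phosphorylates condensin, had 760.9 and 768.3 in COUP-TFII siRNA cells, against 2477 and 2220 in control cells, a log2 fold change of −1.60 ± 0.07 (SE). AURKB, the kinase of the chromosomal passenger complex that promotes condensin I loading, had 95.5 and 150.5 in COUP-TFII siRNA cells, against 421.8 and 437.0 in control cells (log2 fold change −1.71). Its other probe set ran the other way without passing, with 31.3 and 38.4 in COUP-TFII siRNA cells and 18.1 and 16.7 in control cells, and averaging the 2 gave −0.55 (limma adjusted p = 0.0470). TOP2A, the topoisomerase that untangles chromatids along the same axis, had 328.5 and 394.4 in COUP-TFII siRNA cells, against 972.2 and 861.7 in control cells (log2 fold change −1.31). On the brightest probe set of each of these 3 genes, both COUP-TFII siRNA values lay under the lower control value, as for 26.7% of all genes. In the probe set fit, 3 of the 4 CDK1 probe sets and 2 of the 3 TOP2A probe sets passed as lower. BUB1, a spindle checkpoint kinase, had 268.1 and 284.6 in COUP-TFII siRNA cells, against 690.2 and 628.2 in control cells (log2 fold change −1.21). In the probe set fit 1 of its 5 probe sets passed, and the other 4, all with a mean under 32, did not. Averaging them all gave a log2 fold change of −0.43 (limma adjusted p = 0.108). The 5 listed genes that did not pass, named after their values were seen, were HASPIN (log2 fold change −0.32), INCENP (−0.25), AKAP8 (−0.04), TOP2B (0.06) and RIF1 (0.15). A second AKAP8 probe set did pass as higher in the probe set fit (0.35, limma adjusted p = 0.0360). TOP2B, the topoisomerase isoform that is not tied to proliferation, had 2432 and 2405 in COUP-TFII siRNA cells and 2460 and 2174 in control cells.

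Most of cohesin's other subunits and regulators did not pass. Of 16 genes, 5 passed as lower, 1 as higher and 10 did not pass. Over all genes, 10.3% passed as lower and 12.7% as higher. At an unadjusted p of 0.05 (limma), 8 of the 16 were lower and 3 higher. The list's median log2 fold change was −0.16. CDCA5 (sororin), which protects cohesion on replicated chromosomes, had 164.2 and 216.8 in COUP-TFII siRNA cells, against 622.7 and 626.6 in control cells, which is −1.65 ± 0.12 in log2 units (SE; adjusted p = 2.67e-05, limma). PTTG1 (securin), the inhibitor of separase, fell by 0.81 on the log2 scale, read from a probe set open to cross-hybridisation, and ESPL1, separase itself, fell by 0.65. ESPL1 did not pass without control replicate 1 or 2 (limma adjusted p = 0.0718 and 0.0712) or with no intensity trend (0.0532). ESCO2, the S phase acetyltransferase of SMC3, had a log2 fold change of −0.65 (limma adjusted p = 0.0484) and lost its call when any 1 array was omitted (0.101 to 0.257). The fifth that fell was STAG1, a STAG subunit outside the rule for named genes and named after its value was seen, at −0.64. It lost its call with no intensity trend (limma adjusted p = 0.0763) and without COUP-TFII siRNA replicate 2 (0.0621), control replicate 1 (0.0921) or control replicate 2 (0.0504), and the list then held as few as 2 lower calls. ESCO1, the acetyltransferase that acts through the cell cycle, rose, with 1271 and 1225 in COUP-TFII siRNA cells, against 995.6 and 908.6 in control cells, which is 0.39 ± 0.07 in log2 units (SE; adjusted p = 0.00305, limma); it too was named after its value was seen. In the probe set fit 1 of its 3 probe sets passed, and its call was lost with no intensity trend (limma adjusted p = 0.0934), with averaged probe sets (0.109), without COUP-TFII siRNA replicate 1 (0.0605) and without control replicate 2 (0.0719). Genes of the ring and its loader, named for these roles with their values known, did not pass on their brightest probe set: RAD21 (−0.14), STAG2 (0.05), NIPBL (0.17) and MAU2 (0.28). In the probe set fit a dimmer RAD21 probe set passed as lower (−0.33, limma adjusted p = 0.0269) and a dimmer NIPBL one as higher (0.52, limma adjusted p = 0.0419). RAD21 had 3745 and 3735 in COUP-TFII siRNA cells, against 4239 and 4030 in control cells.

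The third SMC complex, SMC5/6, which acts in the repair of stalled forks, held no gene that passed as lower. Of its 9 genes, 2 passed as higher and 7 did not pass (limma; 2 lower and 4 higher at an unadjusted p of 0.05). Over all genes, 10.3% passed as lower and 12.7% as higher. The median of the 9 genes was 0.23 in log2 units, and that of all genes 0.01. NSMCE2, its SUMO ligase, had 1635 and 1467 in COUP-TFII siRNA cells, against 1119 and 1083 in control cells, which is 0.49 ± 0.07 in log2 units (SE; adjusted p = 0.000873, limma). NSMCE1, a RING-domain subunit, had 644.8 and 645.1 in COUP-TFII siRNA cells, against 473.9 and 491.9 in control cells, which is 0.41 ± 0.07 in log2 units (SE; adjusted p = 0.00341, limma). Neither passed with no intensity trend (limma adjusted p = 0.0690 for NSMCE2 and 0.0713 for NSMCE1), and NSMCE1 did not pass without control replicate 1 (0.0618). The SMC dimer itself, likewise named for its role, SMC5 (log2 fold change 0.34) and SMC6 (0.30), did not pass. Of the 4 meiotic cohesin genes 0 passed (limma; 2 lower and 0 higher at an unadjusted p of 0.05), and means of SMC1B, the meiotic paralogue of SMC1A, were 4.87 in COUP-TFII siRNA cells and 17.4 in control cells.

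**Figure D3:**
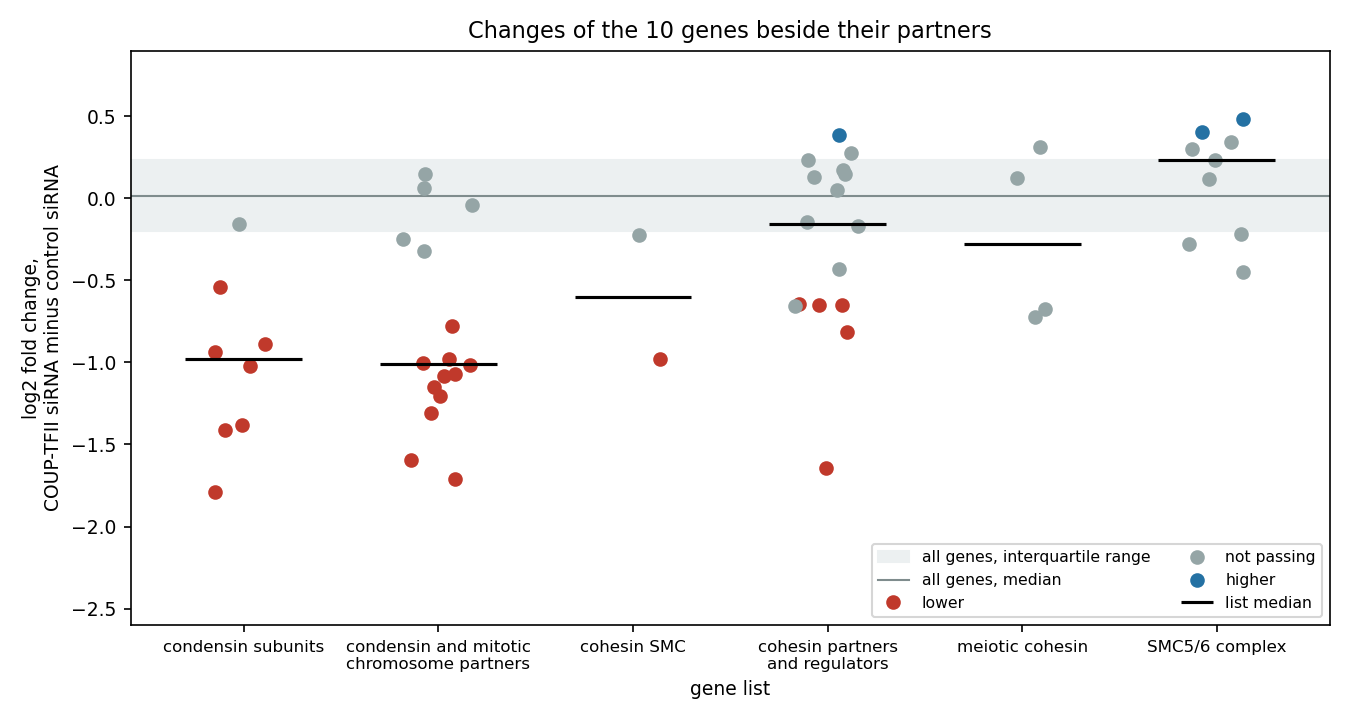
Log2 fold change (COUP-TFII siRNA minus control siRNA, y axis) of each gene, by list (x axis), with the list median as a black line, beside the interquartile range of all genes in grey. Condensin subunits and their mitotic partners have medians of −0.98 and −1.01, cohesin partners −0.16 and SMC5/6 genes 0.23.

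The genes whose profile over the 4 arrays lay closest to the mean condensin profile were ranked by Euclidean distance of centred log2 values. The 6 nearest outside the lists used here were LPAR1 (0.0154), a lysophosphatidic acid receptor, SLC25A15 (0.0371), a mitochondrial ornithine transporter, PEX19 (0.0418), a peroxisome assembly factor, TGFBR2 (0.0432), a TGF-beta receptor, SLC19A2 (0.0468), a thiamine transporter, and GMNN (0.0492), the replication licensing inhibitor geminin. The median distance of all genes was 1.07. LPAR1 had 467.5 and 448.3 in COUP-TFII siRNA cells, against 941.0 and 947.0 in control cells. Their log2 fold changes, −1.02 to −0.97, follow from how they were chosen, and the distance rests on 4 arrays only.

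The split of calls over all genes depended on the scaling. Housekeeping centring gave 877 lower and 7640 higher calls (89.7% of calls higher) and raised every gene's log2 fold change by 0.31, where 2039 were lower and 2519 higher without it (55.3%). The 10 housekeeping genes themselves had a median log2 fold change of −0.06. The 0.31 arises because the middle of their levels fell between SDHA and PGK1 on the COUP-TFII siRNA arrays and between HPRT1 and PGK1 on the control arrays. PPIA was read from a dim probe set, averaging 10.05 with COUP-TFII siRNA and 6.02 with control siRNA, below the other housekeeping genes. Centring instead on the median change of these genes, a setting added after seeing the data, moved the all-gene median by 0.08 and gave 1713 lower and 3751 higher calls (68.6% higher), and 8 of the 10 genes, SMC2 included, passed as lower. The 8 genes that passed kept a negative log2 fold change in all 18 alternatives. NCAPD2, NCAPG, NCAPH, NCAPD3, NCAPG2 and SMC4 also passed in each of them, SMC1A in 17 and SMC2 in 12.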

How the data were processed

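Total RNA from 4 samples was amplified to biotinylated cRNA with a 3′ IVT kit and read on single-colour Affymetrix arrays (per the protocols in the labels). The authors deposited 1 linear intensity per probe set and array (0.61 to 15890). How these were summarised and normalised is not given in the sources used here, and no detection calls were used. Precision is limited by having 2 arrays a group. The largest difference in array median was 3.66%, below the 5% at which arrays would have been rescaled.

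Intensities were analysed as log2(value + 16) with limma 3.58.1 (R 4.3.3; lmFit, eBayes with an intensity trend; 2 residual degrees of freedom a gene) without a replicate block. Single-gene probe sets (41091, named by the array's annotation and updated through Entrez identifiers in RefSeq GRCh38.p14, which matched 41037) gave 19775 genes, each represented by its brightest probe set, those marked _x_at only where there was no other. A second fit took all 54613 probe sets other than controls. No filter on low values was applied. The fits were tested on simulated data.

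The 10 genes, the lists and the rules were chosen with earlier results of these data known. Named were all members, up to 4 passing genes of each list with the largest change, and the 6 most similar profiles. Alternatives (17 planned, 1 added after seeing the data) covered the replicate block, scaling, pseudocounts of 1 and 64, dim genes (mean under 32), the variance prior, how probe sets stand for a gene, call thresholds and the omission of each array. Figures were drawn with matplotlib 3.10.9.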

Additional observations from a re-analysis of the deposited data

How the results depend on the processing

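Of the 10 genes, between 7 and 9 passed as lower under every alternative (limma), 7 to 8 with 1 array left out, and none passed as higher in any of them. Of the 24 probe sets, 5 passed with no intensity trend and 7 to 10 with 1 array left out, against 11. In the partner lists, 16 genes were lower, or 12 to 15 with 1 array left out, and 3 higher. The count of higher partner genes was 6 with a replicate block, 5 with quantile normalization, 5 with arrays scaled to the same median, 7 with dim genes left out, 6 with a robust prior, 0 with no intensity trend, 0 at 1.5-fold, 16 with housekeeping centring, 7 with centring on the changes of housekeeping genes (chosen after seeing the data) and 2 to 3 with 1 array left out. Over all genes, 2039 were lower and 2519 higher; these were 814 and 754 with no intensity trend, 1318 and 1450 at an adjusted p of 0.01, 909 and 914 at 1.5-fold, 877 and 7640 with housekeeping centring, and 886 to 1370 and 882 to 1222 with 1 array left out. Averaging probe sets gave 1631 higher. The NCAPG minus NCAPG2 difference was −0.54 with a pseudocount of 1, −0.34 with 64 and −0.53 with averaged probe sets, and NCAPH minus NCAPH2 was −1.89 and −1.16 with these pseudocounts. With averaged probe sets SMC2 minus SMC4 was 0.23 and SMC1A minus SMC3 −0.068; 3 dim SMC1A probe sets, 1 dim SMC3 probe set and the cross-hybridising SMC4 probe set enter those means. The labels do not say whether arrays with the same replicate number belong together. Deviations of same-numbered arrays correlated at 0.0101 over all probe sets, many of them dim, which does not settle it. The replicate block gave 9 of the 10 genes lower (SMC3 included, limma adjusted p = 0.0334). Over all genes it gave 2277 lower and 2849 higher. Other causes were not tested. Probe sets near the low end of the scale, such as 3 of SMC1A, limit what can be seen of a change.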

Other observations

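The other 7 condensin partners that passed as lower (limma) are given here after their values were seen. KIF22, a chromokinesin, averaged 54.1 in COUP-TFII siRNA cells and 139.8 in control siRNA cells. Its dimmer probe set overlapped between the groups and did not pass. KIF4A, the chromokinesin that binds condensin, averaged 250.4 in COUP-TFII siRNA cells and 523.0 in control cells. BIRC5 (survivin) and CDCA8 (borealin), partners of AURKB in the chromosomal passenger complex, had log2 fold changes of −1.08 and −1.01. CCNB1, the cyclin of CDK1, had −1.07, and MKI67, the protein that coats mitotic chromosomes and marks proliferating cells, had −0.98. Of the 4 MKI67 probe sets, 2 passed as lower in the probe set fit. PLK1, a mitotic kinase, was dim, with 13.5 and 22.4 in COUP-TFII siRNA cells against 49.2 and 35.3 in control cells, and had −0.78 (limma adjusted p = 0.0430). PLK1 did not pass in the probe set fit (limma adjusted p = 0.106) or with any 1 array left out (0.105 to 0.268).

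TMPRSS2, an androgen-driven serine protease listed as a gene low in PC3, was not low on these arrays: it averaged 391.6 in COUP-TFII siRNA cells and 144.3 in control siRNA cells, where array medians were near 32, and rose by 1.35 on the log2 scale (limma adjusted p = 4.75e-05).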
